A study of Caenorhabditis elegans with 12 samples.

Results

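The first response to forced expression of *hlh-1* was read from 6 of the 12 arrays of the series, the 3 replicates labelled 2 h (A, B and C) set against the 3 labelled 0 h (A, B and C). The arrays were chosen by their labels alone. All samples were whole *C. elegans* embryos of strain KM267, whose transgene places *hlh-1*, the gene of the worm's MyoD homolog, under heat shock control. The 2 h samples had a recorded incubation of 60 min at room temperature, a heat pulse of 30 min at 34 °C and 2 h at room temperature after it. The 0 h samples came from the same strain before any pulse, and whether they had that incubation is not stated. Each sample was a separate pool of about 80 embryos. Samples 4 h and 6 h after the pulse enter here only where the order of events needs them. No embryos that were heated without the transgene, or aged without heat, were analysed here. In every difference given here, effects of HLH-1, of the heat pulse and of the hours of development cannot be told apart.

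HLH-1 is a basic helix-loop-helix factor that turns embryonic cells towards body wall muscle. In normal embryos it acts with the MADS box factor UNC-120 and the HAND factor HND-1, below the Caudal homeobox factor PAL-1, and its known targets include the genes of the sarcomere. Over the same hours of normal development, maternal RNAs are cleared, and short-lived zygotic transcripts such as those of the endoderm GATA factors appear and vanish as the founder cell lineages are set up.

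Values are MAS5 signals, an Affymetrix scale of probe brightness. A signal of 69.7 served as the reference level for a dim probe set, and 18264 of 22548 probe sets that are not controls lay above it on enough arrays to be tested. The 2 h arrays had 56.7 to 60.2 percent of probe sets above it and the 0 h arrays 58.2 to 60.6 percent. The deposited signals share 1 trimmed mean, but the hybridization controls of the arrays differed. They averaged 11.28 to 11.43 on the log2 scale in the 2 h arrays and 11.69 to 12.14 in the 0 h arrays. Scaled to those controls, all tested genes shifted by a median of 0.62 in place of 0.10, and 79.5 percent in place of 60.4 percent of the genes called were rises. Whether these controls track the RNA content of the embryos was not tested. Signals are compared below as deposited. The actin 3′ to 5′ signal ratio, often read as a measure of RNA length, was 7.79 to 9.75 in the 2 h arrays and 10.5 to 15.6 in the 0 h arrays. Its 3′ signal was 31181 to 35865 at 2 h and 39831 to 55935 at 0 h. The 5′ signal overlapped, 3199 to 4602 at 2 h and 2556 to 4163 at 0 h. Actin genes were themselves called in both directions, as given below, and their part in this ratio was not tested. The ubiquitin ratio overlapped, 10.8 to 16.47 at 2 h and 13.5 to 14.8 at 0 h, as did the GAPDH ratio, 9.31 to 26.3 at 2 h, with array A the highest, and 9.18 to 15.2 at 0 h. The part of RNA length in the results was not tested.

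Between 2 h and 0 h, 2836 probe sets rose and 1745 fell, 15.5 and 9.55 percent of those tested. A call needed a Benjamini-Hochberg adjusted p under 0.05 in limma and a change of at least 1.7-fold. Read at 1 probe set per gene, 2187 of 14055 genes rose (15.6 percent) and 1434 fell (10.2 percent), and the counts of gene groups below are read against these shares. The arrays of both times did not overlap in 2783 of the rises and 1715 of the falls. The calls use the same signals, so this is no separate evidence, and the share over all tested probe sets was not counted. Where all 6 arrays lay above the reference level, the median rise was 2.65-fold over 1758 probe sets and the median fall 3.14-fold over 1092. Falls of 10-fold or more numbered 157 among these and rises of that size 120. Of the 200 brightest probe sets at 2 h, 37 rose and 18 fell, and of the 200 brightest at 0 h, 0 rose and 88 fell, where choosing by brightness at 1 time favours the direction that time is high in. These embryos are mixtures of all cells, so that fewer cells of a kind and less RNA per cell give the same reading. Where a gene had several probe sets the brightest was read for the lists, and a conflict of sign with another is given beside the gene. The largest rises and falls were instead ranked over every probe set of 1 gene, so that some are not at the gene's brightest probe set.

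Among the 4 myogenic factors 2 rose and 1 fell. *hlh-1* itself read 3684, 4023 and 2802 at 2 h, against 199, 348 and 196 at 0 h, 14.5-fold higher (log2 change 3.86 ± 0.28, adjusted p = 8.98e-10). The files do not say whether its probe set reads the transgene, the native gene or both. *unc-120*, the SRF-like MADS box partner, read 839.9, 725 and 948 at 2 h, against 138, 161 and 188 at 0 h, 5.17-fold higher (log2 change 2.37 ± 0.20, adjusted p = 1.16e-08). Both sets of arrays were apart for these factors, and *hlh-1* was the larger rise. *hnd-1*, the HAND factor of early muscle precursors, went the other way with 3739, 1538 and 622 at 2 h, against 11936, 19918 and 17719 at 0 h, 10.6-fold lower (log2 change -3.40 ± 0.57, adjusted p = 0.00106). Its 2 h arrays spread widely, and the fall was 16.52-fold without array A of 2 h and 6.74-fold without array C of 2 h. *pal-1* was not called at its brightest probe set (122, 99.8 and 28.7 at 2 h, against 192, 119.8 and 187 at 0 h; log2 change -1.21 ± 0.83, adjusted p = 0.328), while 1 of its other probe sets fell with a log2 change of -4.02.

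**Figure D1:**
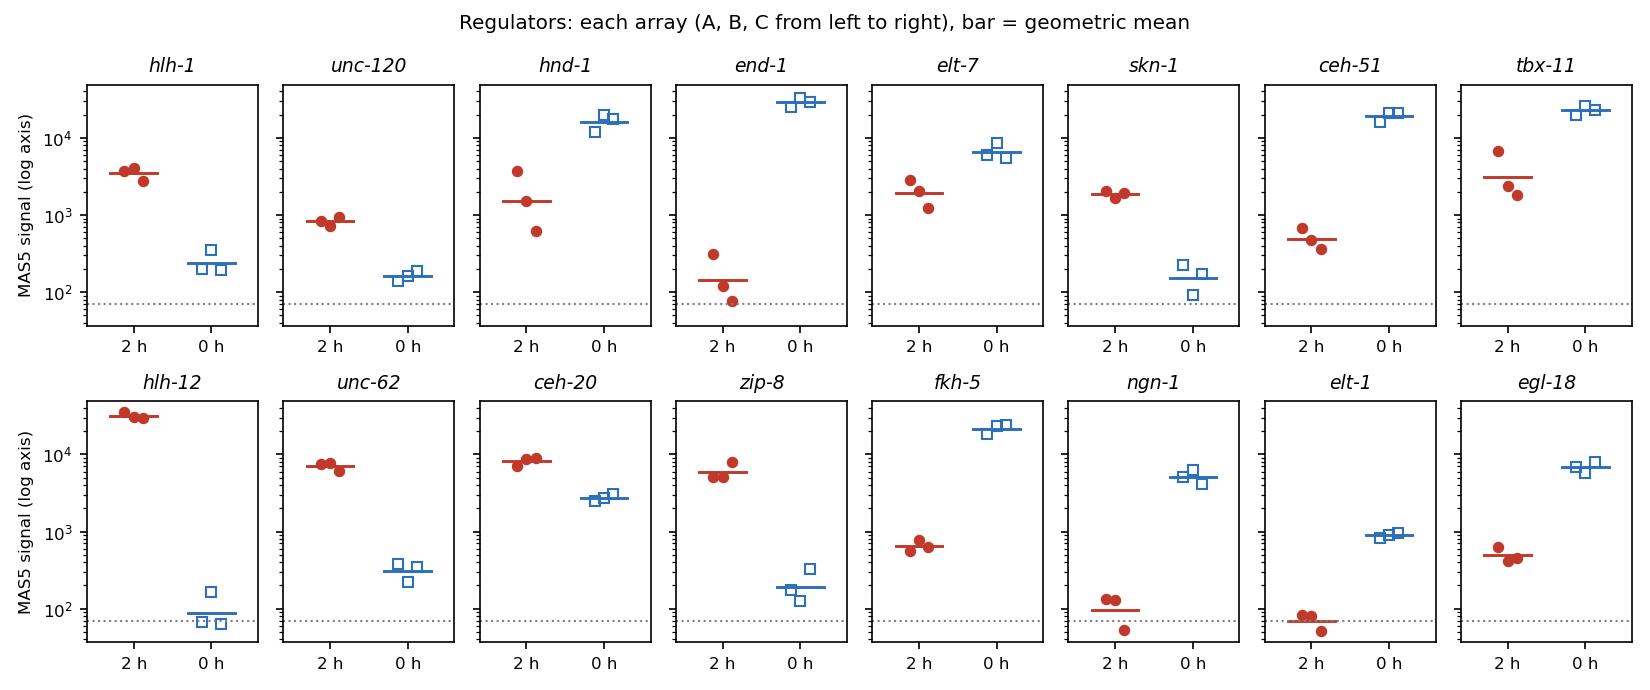
MAS5 signal (log axis) of 16 regulators in the 3 arrays of 2 h (filled circles, left in each panel) and the 3 of 0 h (open squares, right), arrays A, B and C from left to right; bars are geometric means and the dotted line is the reference level of 69.7. The groups are apart in every panel, with *hlh-1* and *hlh-12* high at 2 h and *end-1* and *ceh-51* high at 0 h.

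Other transcription factors had also changed by 2 h. Among basic helix-loop-helix genes, 9 of 33 rose and 7 fell. The largest rise was that of *hlh-12*, known for its role in migration of the distal tip cells of the later gonad, with 35491, 30204 and 29289 at 2 h, against 67.6, 163 and 62.7 at 0 h, at least 341-fold higher (adjusted p = 5.46e-13). It was still high at 4 h (48731, 55008 and 34435) and dimmer at 6 h (8080.0, 8506 and 11134). *hlh-11* (9.69-fold), *hlh-16* (7.44-fold), *hlh-19* (at least 5.22-fold) and the Mad-like *mdl-1* (at least 8.97-fold) were higher as well. The falls included proneural genes. *ngn-1*, the neurogenin homolog, read 134, 129.6 and 52.7 at 2 h, against 5143, 6249 and 4071 at 0 h, at least 47.6-fold lower (adjusted p = 6.22e-07). *hlh-3*, an achaete-scute homolog, was at least 16.8-fold lower, and the HES-like *ref-1*, which acts below Notch signals in the early embryo, was 8.42-fold lower. The probe sets shared by *hlh-25* and *hlh-27* and by *hlh-28* and *hlh-29*, relatives of *ref-1*, fell too, at least 7.61-fold lower (adjusted p = 0.000782) and at least 1.96-fold lower (adjusted p = 0.0256).

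Homeobox genes were split, and 11 of 77 rose and 18 fell. The TALE class pair moved up together. *unc-62*, the Meis homolog, read 7499, 7754 and 6155 at 2 h, against 379, 220.2 and 342 at 0 h, 23.2-fold higher (log2 change 4.54 ± 0.25, adjusted p = 2.25e-11), although a second probe set gave a log2 change of 1.02. *ceh-20*, the Pbx homolog that partners it, read 7169, 8696 and 8974 at 2 h, against 2502, 2686 and 3076 at 0 h, 3-fold higher (log2 change 1.59 ± 0.16, adjusted p = 2.24e-07). *ceh-6*, a POU factor, was at least 14.8-fold higher and *unc-42*, a factor of command interneurons, at least 18.2-fold higher. Among the falls, *ceh-51*, which specifies mesoderm in the MS lineage, read 679.8, 476 and 366 at 2 h, against 15853, 20723 and 21061 at 0 h, 38.8-fold lower (log2 change -5.28 ± 0.86, adjusted p = 0.00114). *ceh-76* was 52.1-fold lower, *ceh-13*, the labial-type Hox gene, at least 26.2-fold lower and *ceh-49* at least 17.7-fold lower. The loss of *ceh-13* did not last, with 1415, 942 and 917 at 4 h and 5838, 5275 and 5834 at 6 h.

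T-box and GATA genes fell or were not called, and none rose. Of 14 T-box genes tested, 7 fell, with a median log2 change of -2.21 over all 14, against 0.10 over all genes. *tbx-37* and *tbx-38*, a redundant pair of the AB lineage, were at least 8.3-fold and at least 18.7-fold lower. *tbx-43* was at least 35.2-fold lower. *tbx-11* was the brightest of the family and read 6774, 2369.6 and 1833 at 2 h, against 19711, 25752 and 23048 at 0 h, 7.35-fold lower (log2 change -2.88 ± 0.59, adjusted p = 0.00385). Of 9 GATA genes 5 fell. *end-1*, which starts the endoderm program, had the largest measured fall of the regulators named here, with 315, 118.8 and 76.8 at 2 h, against 25499, 33397 and 29022 at 0 h, 205-fold lower (log2 change -7.68 ± 0.53, adjusted p = 7.47e-08). *end-3*, its partner, read 179, 17.7 and 124 at 2 h, against 1102, 510.4 and 573 at 0 h, at least 5.94-fold lower (adjusted p = 0.0027). *elt-7*, the next GATA factor in the gut cascade, retained part of its signal with 2813, 2022 and 1222 at 2 h, against 6026, 8494 and 5415 at 0 h, 3.42-fold lower (log2 change -1.77 ± 0.29, adjusted p = 9.02e-05), and was lower again by 4 h (283, 377 and 451). Their target *elt-2*, the main intestinal GATA gene, was not called at its brightest probe set, with 153, 54.5 and 102.8 at 2 h, against 95.7, 41.8 and 122 at 0 h, log2 change 0.27 ± 0.69, adjusted p = 0.828, and another of its probe sets gave a log2 change of 3.82. *skn-1*, the bZIP factor that acts first in this cascade, read 2058, 1679.9 and 1949.6 at 2 h, against 222, 91.6 and 172 at 0 h, 12.4-fold higher (log2 change 3.64 ± 1.13, adjusted p = 0.0389). That call was lost on leaving out any 1 of the 6 arrays (adjusted p = 0.0675 to 0.126).

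Among forkhead and bZIP genes rises outnumbered falls. Of 13 forkhead genes, 5 rose and 1 fell. *fkh-7* (7.52-fold), *let-381* (at least 5.05-fold), *pes-1* (4.25-fold) and *fkh-8* (3.38-fold) were higher. *fkh-5* alone fell, with 553, 783 and 635 at 2 h, against 18391, 23206 and 23708 at 0 h, 33.3-fold lower (log2 change -5.06 ± 0.35, adjusted p = 5.78e-10). Among bZIP genes 8 of 24 rose and 1 fell. *zip-8* read 5133, 5090.2 and 8042 at 2 h, against 176, 127 and 325 at 0 h, 30.7-fold higher (log2 change 4.94 ± 0.29, adjusted p = 7.12e-11), *zip-7* was at least 13.3-fold higher and *zip-2* 7.55-fold higher. Only *atf-4* of that list fell, 2.12-fold lower, and it stood above its 0 h level at 4 h (4759, 3738 and 5593). In the list of SOX and MADS box genes, 2 of 9 rose and 2 fell (3 rose and 1 fell scaled to the hybridization controls), *hmg-1.2* being 3.54-fold higher. *pop-1*, the TCF factor of asymmetric divisions, was at least 4.14-fold lower.

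Among zinc finger factors 4 of 47 rose and 8 fell, and scaled to the hybridization controls 11 rose and 5 fell. *lsy-27* had been one of the brightest regulators at 0 h and read 13679.5, 9779.5 and 4791 at 2 h, against 65021, 75220.2 and 74426 at 0 h, 8.28-fold lower (log2 change -3.05 ± 0.34, adjusted p = 5.46e-06). *ztf-25* was 48-fold lower, *ztf-11* 7.78-fold lower and *lir-3* 5.57-fold higher, with 1 probe set of *ztf-11* that did not fall. Nuclear hormone receptors had 16 rises and 14 falls among 194, both under the shares of all genes. *nhr-91* was at least 6.37-fold higher and *nhr-2*, an early zygotic receptor gene, 6.57-fold lower, with 1 of its other probe sets at a log2 change of 1.04.

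Genes that pattern the early lineages fell more often than they rose. Of 20 such factors 9 fell and 1 rose. The lists overlap, so that a gene such as *pes-1* is counted in more than 1 of them. *pes-10*, an early zygotic transcript often used as a marker of the start of transcription, read 98, 9 and 36.8 at 2 h, against 5864, 5139 and 3622 at 0 h, at least 61.2-fold lower (adjusted p = 1.34e-06). *tbx-9* (at least 8.61-fold) and *tbx-8* (at least 5.28-fold), a T-box pair of embryonic morphogenesis, were lower. The single rise was *pes-1*, with 2084, 2858 and 3016 at 2 h, against 551, 682 and 623 at 0 h. *hlh-8*, the Twist homolog, *tbx-2* and *ceh-22*, the NK-2 factor of pharyngeal muscle, were not called at 2 h and were called higher at 4 h, where *hlh-8* read 191, 292 and 200.1. Of 10 epidermal regulators 4 fell and 0 rose. *elt-1*, the GATA factor at the head of epidermal fate, read 81.5, 79.1 and 50.6 at 2 h, against 835, 914 and 969.6 at 0 h, at least 11.8-fold lower (adjusted p = 0.00814). *egl-18* was 13.8-fold lower, the Distal-less homolog *ceh-43* at least 19.9-fold lower and *die-1*, needed for epidermal intercalation, 2.77-fold lower.

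Neuronal regulators changed both ways, and 3 of 25 rose and 7 fell. Besides the proneural genes above, *unc-30*, the Pitx homolog of GABA neurons, read 155, 271 and 182 at 2 h, against 3065, 4271 and 3556 at 0 h, 18.2-fold lower (log2 change -4.19 ± 0.73, adjusted p = 0.000203). *ham-1*, which acts in asymmetric neuroblast divisions, was 3.4-fold lower. *egl-44*, a TEF-type factor, was at least 8.5-fold higher. *hlh-14*, another achaete-scute homolog, read 1777, 691 and 124 at 2 h, against 4371, 5915 and 5648 at 0 h, 9.85-fold lower (log2 change -3.30 ± 0.80, adjusted p = 0.0134). Its 2 h arrays were far apart. Without array A of 2 h the fall was 18-fold and without array C of 2 h 4.75-fold.

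In the Notch list 2 of 16 rose and 3 fell, near the shares of all genes, and scaled to the hybridization controls 5 rose and 3 fell. The falls were 2 ligand-type genes and a receptor. *dsl-2*, a gene of the Delta, Serrate and LAG-2 class, read 12999.8, 8175 and 5083 at 2 h, against 65739.5, 76286 and 79589.7 at 0 h, 9.04-fold lower (log2 change -3.18 ± 0.54, adjusted p = 0.00134), and *dsl-1* read 1698, 939 and 505 at 2 h, against 38335, 41533 and 43732 at 0 h, 44.2-fold lower (log2 change -5.47 ± 1.33, adjusted p = 0.0149). The call of *dsl-1* was lost without array C of 2 h (adjusted p = 0.0554). The receptor gene *glp-1* was at least 2.67-fold lower. The rises were *aph-1* (5.39-fold) and *pen-2* (2-fold), subunits of the gamma-secretase that cleaves the receptor. In the Wnt list 8 of 23 rose and 4 fell, with 3 to 9 rises and 2 to 5 falls over the alternatives run. Intracellular components made up most rises. *wrm-1* (2.9-fold) and *sys-1* (3.32-fold) encode beta-catenins, *lit-1* (3.1-fold) a Nemo-like kinase, *dsh-1* (2.66-fold) a Dishevelled and *apr-1* (2.43-fold) an APC homolog. The Frizzled gene *mig-1* was at least 3.96-fold higher and the Frizzled gene *cfz-2* 2.28-fold lower. Falls included the Wnt ligands *mom-2*, with 234, 377 and 179 at 2 h, against 2259, 1646 and 1687 at 0 h, 7.34-fold lower (log2 change -2.88 ± 0.74, adjusted p = 0.0122), and *lin-44*, at least 2.24-fold lower. For *mom-2* the call was lost without array C of 2 h (adjusted p = 0.0546).

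Most tested genes of the *sdz* and *vet* classes of early zygotic transcripts fell. Another list, of 10 abundant early zygotic and *pes* genes, had 4 falls, 1 rise and 5 not called. Its median log2 change was -0.26. Of 29 *sdz* genes, named for their dependence on SKN-1 and their zygotic onset, 23 fell and none rose, with a median log2 change of -4.22. Scaled to the hybridization controls, 21 fell. *sdz-18* had the largest bound, with 66.2, 116 and 33.9 at 2 h, against 22524, 26783 and 21464 at 0 h, at least 284-fold lower (adjusted p = 6.25e-06). *sdz-1* read 53.7, 16.2 and 109.5 at 2 h, against 12190.2, 9551 and 7649 at 0 h, at least 118.7-fold lower (adjusted p = 0.000271). *sdz-16* read 48.4, 43.3 and 53.1 at 2 h, against 7670.4, 9363 and 7529 at 0 h, at least 117-fold lower (adjusted p = 4.31e-09). All 3 were near or below the reference level at 2 h. *sdz-13* was at least 96.5-fold lower. Others were still bright. *sdz-10* read 5941, 3519 and 2245 at 2 h, against 8873, 8798 and 8933 at 0 h, 2.46-fold lower (log2 change -1.298 ± 0.27, adjusted p = 0.000886), and *sdz-4* read 8876, 5003 and 2748 at 2 h, against 14500.5, 19465 and 14979.6 at 0 h, 3.26-fold lower (log2 change -1.70 ± 0.31, adjusted p = 0.000376), and both were lower again by 4 h with 938, 760.0 and 1019.5 for *sdz-10*. The very early transcripts *vet-1*, *vet-2* and *vet-6* were at least 93.7-fold, 41.2-fold and 35.9-fold lower.

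F-box genes of the *fbxb* class fell as a family. These genes, whose products are thought to recruit proteins for ubiquitination, are close copies of one another and may share signal. Of 94 tested, 62 fell and 3 rose, a family chosen after its values were seen. *fbxb-17* read 105, 146 and 94.4 at 2 h, against 23465, 27551 and 26448 at 0 h, 228-fold lower (log2 change -7.83 ± 0.999, adjusted p = 0.000171). *fbxb-90* read 41.5, 13.7 and 70.6 at 2 h, against 9380.4, 12725 and 11432 at 0 h, at least 158-fold lower (adjusted p = 5.66e-08). *fbxb-46* (74.6-fold), *fbxb-47* (72.1-fold) and *fbxb-96* (69.3-fold) were likewise lower. The other F-box classes moved less, with 15 falls and 7 rises of 40 *fbxc* genes and 16 falls and 2 rises of 115 *fbxa* genes. Of 69 genes with a MATH or BTB domain 13 fell, *bath-31* at least 131-fold lower. Of 19 Skp1-related genes, which link F-box proteins to cullins, 7 fell and 2 rose. *skr-15* read 3207, 2954 and 1978 at 2 h, against 44732, 42692 and 62016 at 0 h, 18.5-fold lower (log2 change -4.21 ± 0.61, adjusted p = 0.000511), and *skr-10*, *skr-9* and *skr-2* were 13.8-fold, 5.35-fold and 9.59-fold lower. The cullin gene *cul-1* was 3.34-fold lower.

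The 15 largest measured falls and the 8 largest that have only a lower bound included *fbxb*, *sdz* and *vet* genes and genes known by sequence name alone. *F10G2.4* led with 377, 134 and 91.7 at 2 h, against 36175, 40986 and 41871 at 0 h, 238-fold lower (log2 change -7.89 ± 0.41, adjusted p = 1.91e-10), and the fall was 357-fold without array A of 2 h. *tag-276* read 125, 7.7 and 24.5 at 2 h, against 44839, 45447 and 45799 at 0 h, at least 536-fold lower (adjusted p = 7.55e-05). Signals that had been among the brightest at 0 h were thus at or near the reference level. *F56F4.8* (at least 369-fold), *arrd-2*, an arrestin domain gene (at least 287-fold), and *Y106G6D.2* (at least 143-fold) reached it as well. *lea-1*, of the late embryogenesis abundant class linked to desiccation, read 225, 84.3 and 84.2 at 2 h, against 21986, 11106 and 13833 at 0 h, 128-fold lower (log2 change -7.004 ± 0.77, adjusted p = 3.6e-05), with 1 other probe set that fell and 4 not called, of which 2 had positive changes. *T26E3.5*, *R05H5.3*, *Y57A10B.6* and *Y82E9BL.3* were 121-fold, 109-fold, 98.6-fold and 84.9-fold lower. *Y111B2A.2* and *Y25C1A.6* were 66.6-fold and 63-fold lower. *F56A8.8* was 88.4-fold lower, 137-fold without array A of 2 h and 52.9-fold without array C of 2 h. Many of the falling RNAs read higher in array A of 2 h than in array C. Of 1596 probe sets that fell between 0 h and 4 h and were above the reference level in all 2 h arrays, array A of 2 h was the brightest of the 3 in 49.9 percent and array C the dimmest in 50.1 percent. Evenly spread, each share would be 33.3 percent, but array C was also dimmer over all probe sets that are not controls. Its median signal was 89.6, against 102.3 in array A and 102.7 in array B. The shares over all probe sets were not counted. On 1205 of the 1596, above the level on all arrays of 0 h, 2 h and 4 h, distances from the 2 h mean were read. Their log2 median was 0.08 in array A and -0.07 in array C.

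**Figure D2:**
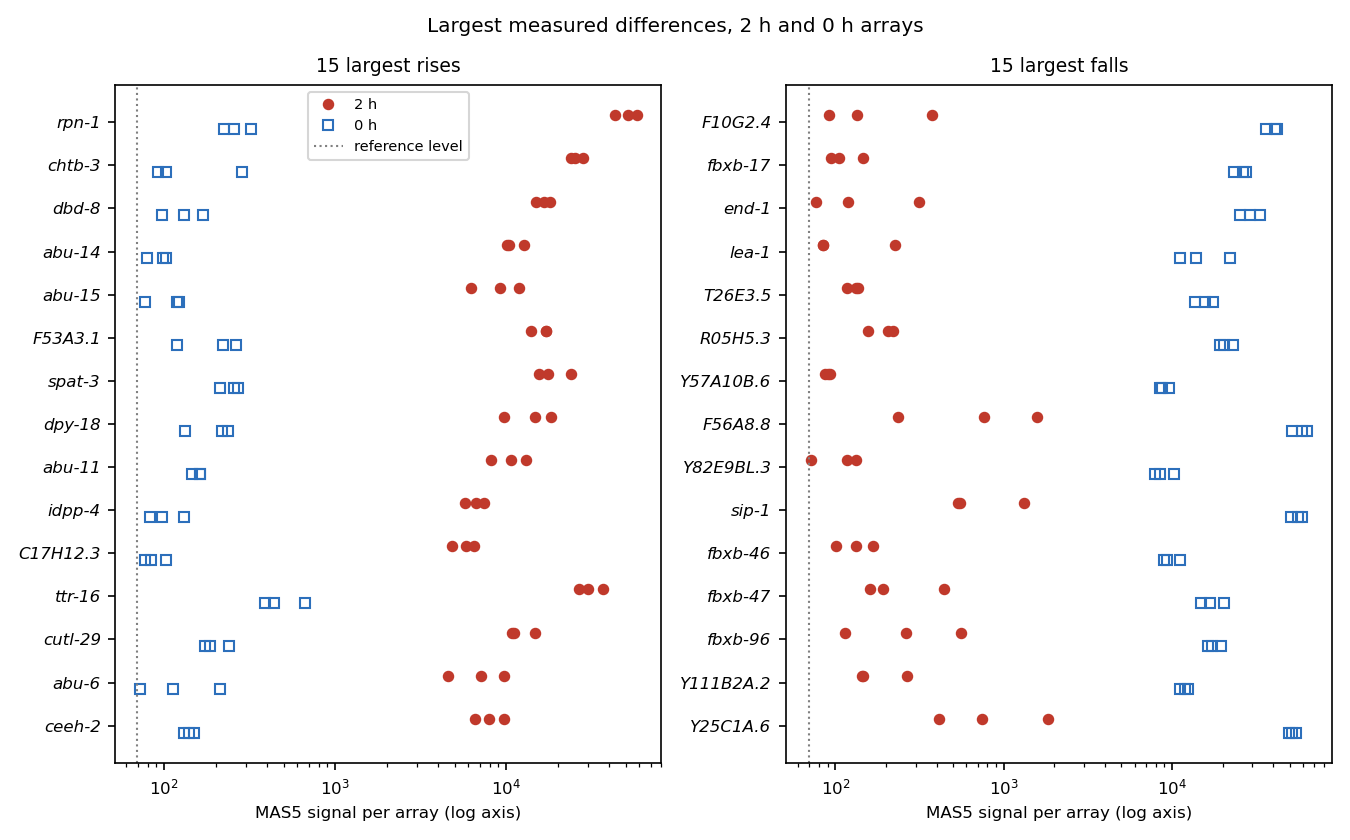
MAS5 signal per array (log axis) for the 15 largest rises (left panel) and 15 largest falls (right panel) among genes with all 6 arrays above the reference level (dotted line). The 2 h arrays are filled circles drawn above the 0 h arrays, drawn as open squares, and the group means differ by at least 56.7-fold among the rises and at least 63-fold among the falls.

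Maternal and germline transcripts gave a mixed picture. Of 8 maternal CCCH zinc finger genes 3 fell. *pie-1*, which guards germline fate, read 193, 207 and 492 at 2 h, against 2587, 2719 and 3277 at 0 h, 10.6-fold lower (log2 change -3.40 ± 0.41, adjusted p = 1.65e-06), and *mex-1* was at least 7.36-fold lower. *oma-1*, a regulator of oocyte maturation whose protein is destroyed around the first mitosis, stood against them with 13744, 16540.2 and 16645 at 2 h, against 1445, 1513 and 1264 at 0 h, 11.1-fold higher (log2 change 3.47 ± 0.51, adjusted p = 0.000254). It fell back at 4 h (686, 894 and 1085). Other maternal RNA regulators had 6 rises and 4 falls among 23. *atx-2*, the ataxin-2 homolog, read 3677, 3734 and 4668 at 2 h, against 329, 185 and 172 at 0 h, 18.3-fold higher (log2 change 4.19 ± 0.34, adjusted p = 7.11e-09), and *gld-2*, a cytoplasmic poly(A) polymerase, was 3.18-fold higher along with its partner *rnp-8* (at least 6.21-fold). *sqd-1* was 2.83-fold lower. Eggshell and egg activation genes had 3 rises and 1 fall among 13. *egg-1*, an egg surface receptor for sperm, read 4238, 3943 and 2522 at 2 h, against 245, 269 and 185 at 0 h, 15.1-fold higher (log2 change 3.92 ± 0.41, adjusted p = 2.47e-07), and had fallen below its 0 h level by 4 h (151, 44.9 and 108). *gna-2*, which makes the chitin precursor, was 8.93-fold lower. Another *gld-2* probe set gave a log2 change of -0.40. The rises of *oma-1*, *egg-1*, *atx-2*, *gld-2* and *rnp-8* were brief, and all 5 were called lower at 4 h than at 2 h.

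Of 23 germ granule and germline genes 9 fell and 2 rose. Scaled to the hybridization controls 6 fell, and the number of falls ranged from 5 to 10 over the alternatives run. *wago-1*, an Argonaute, was at least 14-fold lower, *syp-2* and *syp-1*, of the synaptonemal complex, 9.84-fold and 5.02-fold lower, and *glh-1*, a Vasa homolog, 4.66-fold lower. *glh-4*, another Vasa homolog, rose with 1772, 2215 and 1731 at 2 h, against 67.5, 142 and 79.4 at 0 h, at least 20.5-fold higher (adjusted p = 1.12e-05). Polarity genes were mostly not called, and 2 of 11 rose and 0 fell, with *lgl-1* at least 3.48-fold higher and *cdc-42* 2.15-fold higher.

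The largest rises included genes of secreted and cuticle-type proteins and none of the muscle genes listed here. *rpn-1*, annotated as a proteasome subunit gene, led those with all arrays above the reference level, with 57849.7, 51406 and 43402 at 2 h, against 322, 258 and 225 at 0 h, 191-fold higher (log2 change 7.57 ± 0.18, adjusted p = 9.3e-17). It has 1 probe set, most other subunits of that complex were not called, and whether that probe set reads another transcript was not tested. *chtb-3*, a chitin-binding domain gene, read 25142, 23848 and 27999 at 2 h, against 91.6, 284 and 102 at 0 h, 185-fold higher (log2 change 7.53 ± 0.30, adjusted p = 1.25e-11). *bcf-1* read 56437, 51161 and 49894 at 2 h, against 59, 32.9 and 150.2 at 0 h, at least 582-fold higher (adjusted p = 1.72e-08), and was the largest of the rises known only as a bound. *dbd-8* (128-fold), *F53A3.1* (84-fold), *C17H12.3* (64.8-fold), *idpp-4* (64.9-fold) and the epoxide hydrolase gene *ceeh-2* (56.7-fold) were among the 15. So were *spat-3*, a RING finger gene (76.4-fold), *dpy-18*, a collagen prolyl hydroxylase subunit (72.6-fold), the transthyretin-related *ttr-16* (64-fold) and the cuticlin-like *cutl-29* (61.3-fold), although another *cutl-29* probe set gave a log2 change of -0.99. Other probe sets of *dpy-18* rose less, with log2 changes of 3.42 and 3.03. *spp-8*, a saposin-like gene, read 24104, 26021 and 27122 at 2 h, against 27.6, 19.3 and 114 at 0 h, at least 313-fold higher (adjusted p = 6.23e-07). *ssq-2* was at least 184-fold higher and *phat-4* at least 195-fold higher. Their later levels differed. *ttr-16* was brightest at 6 h with 71978, 114022 and 82289, while *dbd-8* read 134, 99.5 and 146 at 6 h, back at its 0 h level.

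The *abu* genes, first named for induction when the unfolded protein response is blocked and rich in glutamine and asparagine residues, rose as a family. All 10 tested were called, with a median log2 change of 5.35, a family chosen after its values were seen. *abu-10* read 25856, 32842 and 35753 at 2 h, against 204, 14.8 and 151 at 0 h, at least 242-fold higher (adjusted p = 5.97e-05). *abu-14* read 10081, 12787 and 10357 at 2 h, against 79, 98.1 and 102 at 0 h, 119.2-fold higher (log2 change 6.90 ± 0.27, adjusted p = 7.21e-14), and its brighter probe set gave 37883, 37254 and 37499.9 at 2 h, against 5287, 5358 and 4661 at 0 h. *abu-15* (84.2-fold), *abu-11* (66.7-fold), *abu-6* (56.9-fold) and *abu-8* (at least 82.6-fold) followed. Of the 10 probe sets read, 7 carry the suffixes that mark possible cross-hybridization within a family. *abu-2* was at the edge, with 168, 139 and 179 at 2 h, against 5.3, 42.7 and 53.6 at 0 h, and its call was lost on leaving out array A of 0 h or any 2 h array (adjusted p = 0.0902 to 0.233). By 4 h 8 of the 10 were lower than at 2 h. The related *pqn* genes had 16 rises and 3 falls among 45, *pqn-13* (at least 92.1-fold), *pqn-71* (at least 25.6-fold) and *pqn-74* (at least 37.6-fold) leading.

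The 6 tested genes of the T05B4 clone on chromosome V, also chosen after their values were seen, all rose. *T05B4.8* read 27930.3, 25667 and 23375 at 2 h, against 12.4, 28.2 and 12.5 at 0 h, at least 367-fold higher (adjusted p = 2.32e-16), and *T05B4.13* read 27265, 26775 and 27885 at 2 h, against 7.7, 26.7 and 85.8 at 0 h, at least 366-fold higher (adjusted p = 4.14e-06). *T05B4.10* was at least 169-fold higher and *T05B4.9* at least 53.2-fold higher. *T05B4.13* kept its level at 4 h (29180.1, 36915 and 24651) and *T05B4.8* did not (3904, 3915 and 4436). *phat-5*, of the gene class of *phat-4*, was 29.6-fold higher, with 16177, 17734 and 17812 at 2 h, against 552, 575 and 618 at 0 h. Of 9 *ssq* and *ssp* genes, named as sperm-specific, 5 rose, and *ssq-3* was at least 95.2-fold higher, though 1 of its other probe sets gave -0.21 on the log2 scale. Major sperm protein genes, near-identical copies whose probe sets cannot be told apart with certainty, had 17 falls among 23. Scaled to the hybridization controls 11 fell, and none of these genes has a probe set with no suffix for possible cross-hybridization.

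**Figure D3:**
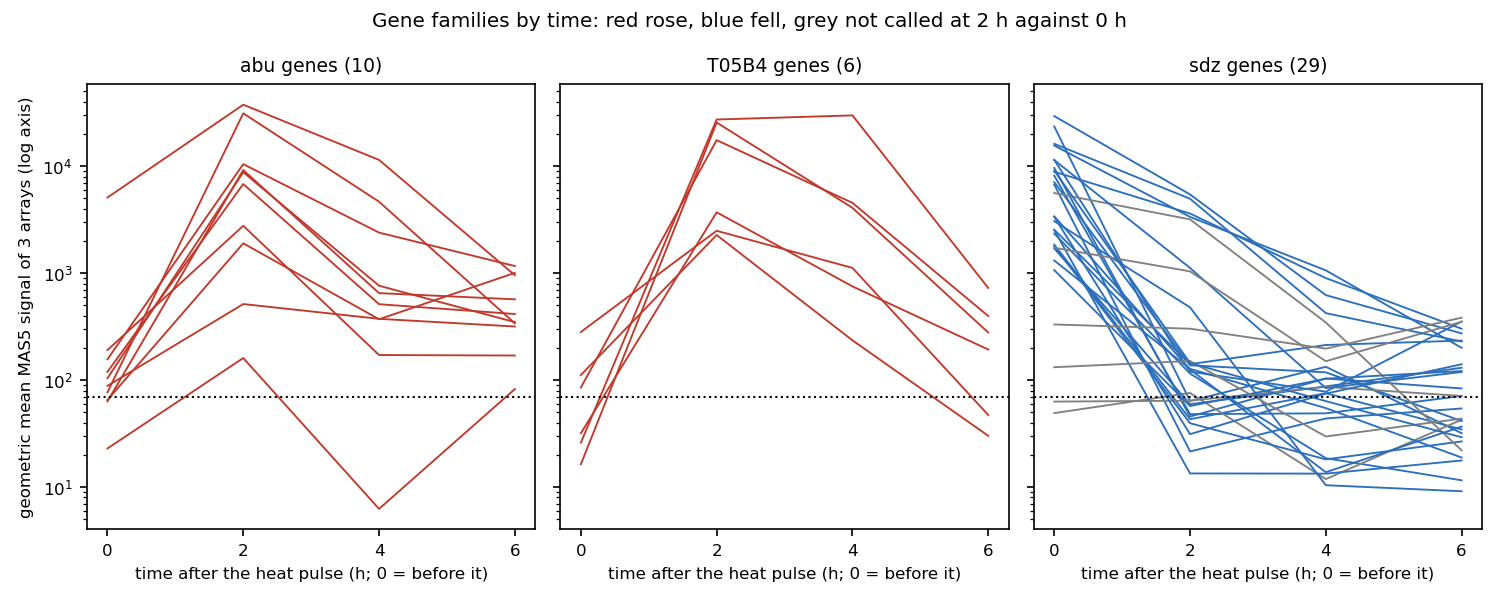
Geometric mean MAS5 signal of 3 arrays (log axis) at 0, 2, 4 and 6 h for each tested *abu*, T05B4 and *sdz* gene, 1 line per gene, with the reference level dotted; red lines rose, blue lines fell and grey lines were not called at 2 h against 0 h. The 10 *abu* and 6 T05B4 lines all rise at 2 h, and 23 of the 29 *sdz* lines drop.

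Inducible heat shock genes were higher 2 h after the pulse. The probe set shared by *F44E5.4* and *F44E5.5*, inducible Hsp70 genes, read 3273, 3841 and 4199 at 2 h, against 131, 159 and 137 at 0 h, 26.5-fold higher (log2 change 4.73 ± 0.28, adjusted p = 5.02e-11), and a second shared one read 6439.9, 6712 and 5477 at 2 h, against 190.3, 158 and 227 at 0 h, 32.6-fold higher (log2 change 5.03 ± 0.63, adjusted p = 0.000153). The small heat shock genes *hsp-16.48* and *hsp-16.49*, which share a probe set, read 3553, 2651 and 1306 at 2 h, against 89, 125 and 279 at 0 h, 15.8-fold higher (log2 change 3.98 ± 0.49, adjusted p = 8.71e-05), and *hsp-16.1* and *hsp-16.11* read 747, 503 and 419 at 2 h, against 87.4, 149.7 and 42.6 at 0 h, at least 5.57-fold higher (adjusted p = 1.76e-05). The fold of the *hsp-16.48* and *hsp-16.49* probe set was 21.9-fold at the highest and 12.4-fold at the lowest with 1 array left out. These were the clear heat shock rises, and most other chaperones were not called. *hsp-16.41* missed the call with 465, 446 and 175 at 2 h, against 75.2, 179.7 and 163 at 0 h (log2 change 1.35 ± 0.51, adjusted p = 0.0563). *hsp-1*, the constitutive Hsp70, read 924, 843 and 1313 at 2 h, against 511, 348 and 467 at 0 h, 2.31-fold higher (log2 change 1.21 ± 0.30, adjusted p = 0.00474), the single rise in a list of 10 large chaperones. The single fall there was *hsp-4*, the BiP homolog, with 20.9, 154 and 69 at 2 h, against 369, 175 and 128 at 0 h, whose arrays overlapped and whose call was lost without array A or B of 0 h or array A or C of 2 h (adjusted p = 0.0658 to 0.196). Of 12 regulators and co-chaperones *dnj-19* was called, 2.56-fold lower. None of 8 CCT chaperonin subunits rose and 1 fell. In the list of 10 small heat shock genes with probe sets of their own, 0 rose and 2 fell. *sip-1*, a small heat shock gene of embryos that had one of the brightest signals at 0 h, read 3627, 1475 and 1009.5 at 2 h, against 99948, 90189 and 117061 at 0 h, 58-fold lower (log2 change -5.86 ± 0.54, adjusted p = 2.44e-05). *hsp-12.2* was at least 2.46-fold lower, 1.69 to 3.6-fold with 1 array left out.

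Mitochondrial ribosomal protein genes had the largest share of calls among the housekeeping lists counted here. Of 58 tested 41 rose and 1 fell, with a median log2 change of 1.13. *mrpl-22* (at least 6.43-fold), *mrpl-30* (at least 2.78-fold), *mrpl-19* (at least 3.83-fold) and *mrpl-17* (at least 3.74-fold) were among the rises. The count ranged from 27 to 47 over the alternatives run. Cytoplasmic ribosomal protein genes did not share this, with 7 rises and 2 falls of 75, under the share of all genes, although scaling to the hybridization controls gave 28 rises. In respiratory chain and ATP synthase genes 3 of 31 rose and 9 fell, with *asb-1* 3.87-fold lower and *asg-1* 2.94-fold lower, and when scaled to the hybridization controls 2 fell. In the proteasome list 4 of 33 rose and 6 fell, and with that scaling 6 rose and 1 fell. After *rpn-1* the largest rise there was *rpn-6.2* (at least 17-fold), and *pas-5* was 4.11-fold lower. Glycolysis genes had 5 rises and 2 falls among 14. *ldh-1*, lactate dehydrogenase, was 13.1-fold higher, and the 2 aldolase genes parted, *aldo-1* 2.58-fold higher and *aldo-2* 14.9-fold lower.

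Most cell cycle genes were not called. Among cyclins, CDKs and mitotic kinases 3 of 21 rose and 5 fell, and scaled to the hybridization controls 6 rose and 3 fell. *cyb-2.2*, a cyclin B gene, read 364, 245 and 203 at 2 h, against 14206, 14874 and 11412 at 0 h, 51.1-fold lower (log2 change -5.67 ± 0.29, adjusted p = 5.33e-12), and *cdc-25.3*, a gene of the CDC25 phosphatase class that activates CDKs, was at least 118-fold lower. *cdk-1* was 2.02-fold higher and *cdk-7* 2.64-fold higher. Brakes on the cycle had 3 rises and 1 fall among 17. *cki-1*, the CDK inhibitor of cell cycle exit, read 508, 644 and 584 at 2 h, against 272, 154 and 257 at 0 h, 2.61-fold higher (log2 change 1.39 ± 0.23, adjusted p = 9.87e-05), and went on to 10610.3, 11305 and 7633 at 4 h, although a second probe set did not rise. DNA replication genes (2 of 28 rose and 5 fell) and kinetochore and spindle genes (8 of 33 rose and 3 fell) were mostly not called. *rnr-2* and *rnr-1*, ribonucleotide reductase subunits, were 3.64-fold and 3.05-fold lower, and *zyg-9*, a microtubule polymerase, 3.77-fold higher. Scaled to the hybridization controls, 19 kinetochore and spindle genes rose, and among DNA replication genes 5 rose and 3 fell. Of 24 histone genes 6 fell, *his-74* 5.42-fold lower, and *his-41* alone rose (2.96-fold). Tubulin genes had 5 rises and 1 fall among 14, and *mec-7*, a beta-tubulin of touch neurons, read 15689, 12494 and 11699 at 2 h, against 562, 584 and 801 at 0 h, 20.6-fold higher (log2 change 4.36 ± 0.22, adjusted p = 4.03e-12). Apoptosis genes had 4 rises and 1 fall among 10, *ced-4* 3.15-fold higher and the p53 homolog *cep-1* 2.59-fold lower. Of 19 Polycomb, NuRD and plasticity chromatin genes 4 rose and none fell, *let-418* 2.54-fold higher and *egl-27* 4.64-fold higher at its brightest probe set, with -0.02 on the log2 scale at another.

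In lists of genes of differentiated tissues other than muscle, most genes were not called. Of 104 numbered collagen genes 24 rose and 7 fell, with *col-129* (at least 7.69-fold) and *col-14* (at least 3.44-fold) among the rises and *col-38* at least 5.58-fold lower. Hedgehog-related and patched-related genes had 10 rises and 6 falls among 71, 14.1 and 8.45 percent, near the shares of all genes. *grl-17* (at least 6.82-fold), *grl-9* (19.8-fold) and *wrt-2* (at least 8.19-fold) were higher and *grd-11* at least 5.1-fold lower. Scaled to the hybridization controls 18 rose and 2 fell in that list. Neuropeptide and insulin-like genes had 4 rises and 12 falls among 84 (7 rose and 8 fell under that scaling), with *ins-2* 19.1-fold higher and *flp-18* at least 7.65-fold lower. Innexin genes, which form gap junctions, had 5 rises and 3 falls among 20, *inx-14* at least 6.63-fold lower. C-type lectin genes had 14 rises and 5 falls among 143, and saposin-like genes 4 rises and 3 falls among 16.

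**Figure D4:**
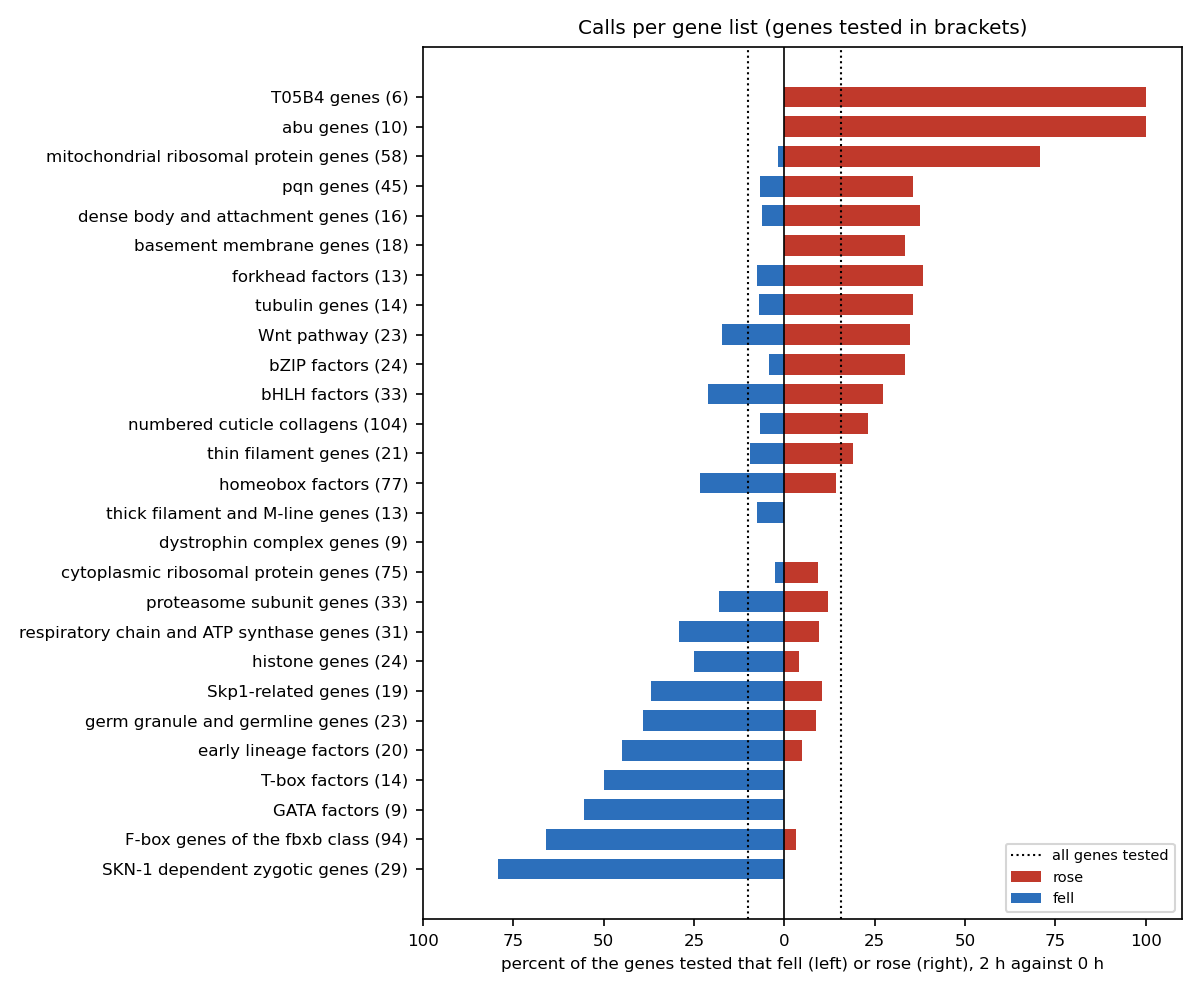
Percent of the tested genes of each list that rose (red, to the right) or fell (blue, to the left) at 2 h against 0 h, with the number tested in brackets and the shares over all genes, 15.6 and 10.2 percent, as dotted lines. All T05B4 and *abu* genes rose, while no *sdz*, T-box or GATA gene did.

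The last question was whether regulators changed before the contractile genes. Counted against 0 h, of 13 thick filament and M-line genes 0 were higher at 2 h, 8 at 4 h and 12 at 6 h. For all genes the shares of rises were 15.6 percent at 2 h, 17 percent at 4 h and 21.4 percent at 6 h, and those of falls 10.2, 12.3 and 15.9 percent. These counts share the 0 h arrays. *myo-3*, the myosin heavy chain A gene, read 13.4, 11 and 6.3 at 2 h, against 10.2, 9.6 and 4.8 at 0 h, below the reference level on all 6 arrays, then 81.3, 156 and 30.6 at 4 h and 1310.5, 2823 and 866 at 6 h. *unc-54*, the main myosin heavy chain gene of body wall muscle, read 142, 137 and 88.2 at 2 h, against 102, 105 and 9.2 at 0 h (log2 change 1.37 ± 0.78, adjusted p = 0.235). *mlc-2*, a myosin light chain gene, read 171, 182 and 98.8 at 2 h, against 317, 94.6 and 62.7 at 0 h (log2 change 0.24 ± 0.49, adjusted p = 0.787), then 8003, 6136 and 7726 at 4 h. *unc-15*, the paramyosin gene, read 69.8, 51.7 and 29.1 at 2 h, against 19, 59.7 and 52.8 at 0 h, none of them above 69.8. The 2 h and 0 h arrays overlapped for each of these 4 genes, while those of *hlh-1* and *unc-120* were apart. Those of *act-4*, *unc-27* and *unc-97*, given below, were apart as well. The transgene places *hlh-1* under heat shock control, so its own rise cannot show the order of regulators and contractile genes. *unc-98*, an M-line gene, was the single call in the list and was 2.39-fold lower at 2 h, before it read 2016, 1242 and 2179.6 at 4 h. That fall was not called when arrays were scaled to the hybridization controls (adjusted p = 0.16).

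Of 21 thin filament genes 4 were higher at 2 h, 13 at 4 h and 14 at 6 h. The rises at 2 h were *act-4*, *unc-27*, *unc-60* and *tni-3*. *act-4*, an actin gene, read 18644, 16453 and 21241 at 2 h, against 1542, 832 and 976 at 0 h, 17.3-fold higher (log2 change 4.11 ± 0.21, adjusted p = 5.16e-12). *unc-27*, a troponin I gene, read 1315, 982 and 1163 at 2 h, against 147, 244 and 247 at 0 h, 5.54-fold higher (log2 change 2.47 ± 0.24, adjusted p = 1.09e-07), and 15309.7, 14506 and 10590.4 at 4 h. *unc-60*, which encodes actin depolymerizing factors of muscle and of other cells, was 3.5-fold higher at its brightest probe set and had 1 of its 4 others not higher. *tni-3*, another troponin I gene, lay below the reference level on all 6 arrays (58.1, 52.3 and 39.5 at 2 h, against 3.3, 10.7 and 14.7 at 0 h), so no fold is given, and its call was lost without array A of 0 h or array A or B of 2 h (adjusted p = 0.068 to 0.101). Lower at 2 h were *act-3* (2.47-fold) and the calponin-like *cpn-1* (3.2-fold). The probe sets shared by *act-1*, *act-2* and *act-3* fell as well, 1.8-fold lower (log2 change -0.85 ± 0.22, adjusted p = 0.00497) and 2.24-fold lower (log2 change -1.17 ± 0.23, adjusted p = 0.000548), while that of all 4 actin genes was not called. *pat-10*, the troponin C gene, was not called, with 423, 602 and 479 at 2 h, against 1879.9, 187 and 148 at 0 h, array A of 0 h standing apart, and read 83616, 70993 and 53335 at 4 h.

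Part of the genes that attach muscle to its surroundings were already higher. Of 16 dense body and attachment genes 6 were higher at 2 h, 10 at 4 h and 14 at 6 h. *unc-97*, the PINCH homolog of integrin complexes, read 6338, 5173 and 7315 at 2 h, against 749.6, 421 and 636 at 0 h, 10.6-fold higher (log2 change 3.41 ± 0.22, adjusted p = 1.88e-10). *pat-4*, integrin-linked kinase, read 339.5, 349 and 436 at 2 h, against 109, 172 and 144 at 0 h, 2.68-fold higher (log2 change 1.42 ± 0.31, adjusted p = 0.0013), *pat-6*, actopaxin, was 2.22-fold higher and *unc-112*, kindlin, 3.07-fold higher. These 4 genes encode proteins that sit together at the integrin tail. The paxillin-like *unc-95* was at least 2.64-fold higher and the spectrin gene *unc-70* 3.29-fold higher. The integrin genes themselves, *pat-3* (1063, 1091 and 1182 at 2 h, against 888, 793 and 623 at 0 h, log2 change 0.55 ± 0.21, adjusted p = 0.0594) and *pat-2*, and *deb-1*, vinculin, were not called. *ketn-1*, a kettin gene of the thin filament anchor, was 4.14-fold lower, with a log2 change of 0.31 at another probe set. With 1 array left out the number of rises in this list lay between 6 and 7, and with the hybridization controls it was 10. Only 6 of these genes have a probe set with no suffix for possible cross-hybridization, and none of the 6 rose on those probe sets.

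Of 18 basement membrane genes 6 were higher at 2 h, 10 at 4 h and 12 at 6 h. *epi-1*, a laminin alpha chain, read 3305, 3272 and 3726 at 2 h, against 594, 219 and 316 at 0 h, 9.93-fold higher (log2 change 3.31 ± 0.26, adjusted p = 4.9e-09). *lam-1*, laminin beta, was at least 4.24-fold higher and *lam-2*, laminin gamma, at least 3.78-fold higher, so that chains of all 3 kinds rose. *mig-17*, a secreted protease, was at least 3.72-fold higher, and *mig-6* at least 3.08-fold higher. Of 9 dystrophin complex genes 0 were higher at 2 h, 6 at 4 h and 8 at 6 h. The dystrophin gene *dys-1* is not among the 9, since its probe set carries a repeated annotation and was set aside as shared. That probe set fell at 2 h, at least 1.62-fold lower (log2 change -2.40 ± 0.71, adjusted p = 0.0153). It was called higher at 4 h than at 2 h, and higher at 6 h than at 0 h. The sarcoglycan gene *sgn-1* read 199, 14.9 and 28.3 at 2 h, against 121, 26.1 and 157 at 0 h, and 46916, 49748 and 52253 at 6 h. Of 15 muscle receptors and channels 2 were higher at 2 h, 7 at 4 h and 10 at 6 h. The 2 h share of rises, 13.3 percent, was near the 15.6 percent of all genes. *lev-8*, an acetylcholine receptor subunit gene, was at least 2.62-fold higher and *csq-1*, calsequestrin, at least 1.94-fold lower at 2 h. Of 36 muscle structural genes taken from the study, a list drawn up in work that also used these arrays and so no independent evidence, 11 rose at 2 h and 1 fell. Scaled to the hybridization controls 15 rose and 0 fell, and on probe sets with no suffix for possible cross-hybridization 2 of 11 rose. Between 2 h and 4 h, where 7.04 percent of all genes rose and 7.66 percent fell, 20 of these 36 rose and none fell.

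**Figure D5:**
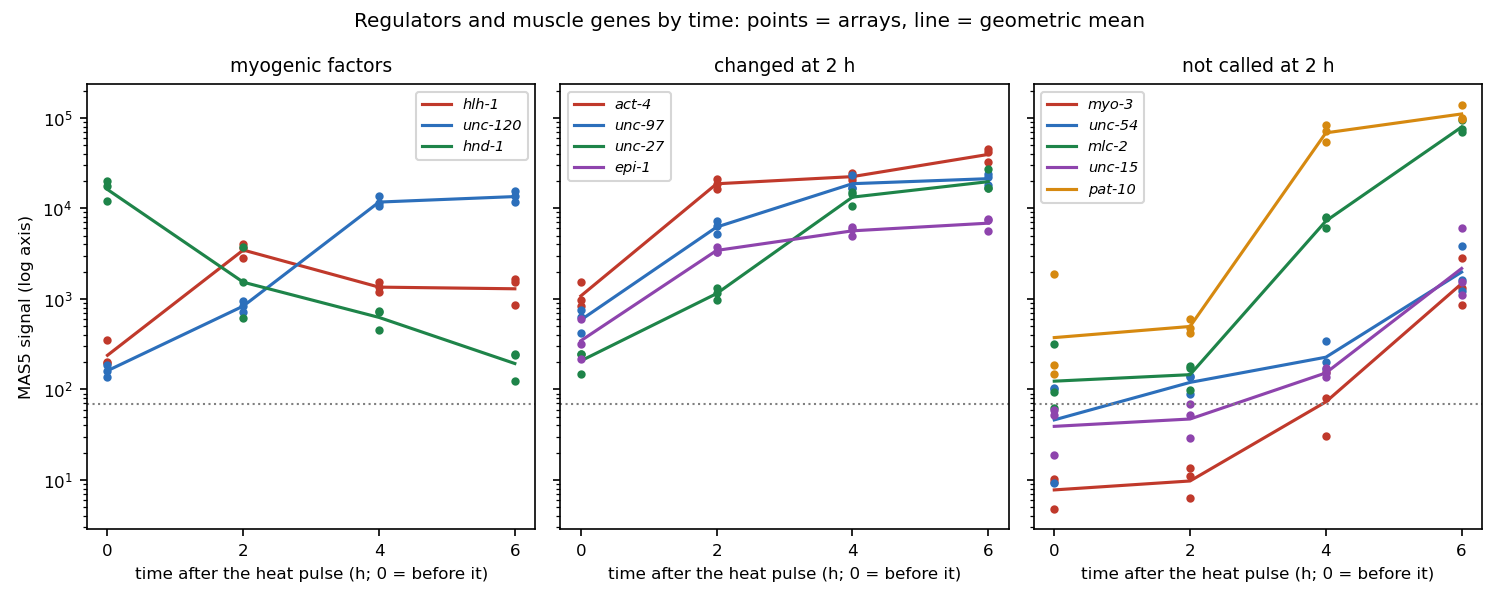
MAS5 signal (log axis) at 0, 2, 4 and 6 h of myogenic factors (left panel), muscle genes higher at 2 h (middle panel) and muscle genes not called at 2 h (right panel); points are arrays, lines join geometric means of 3 arrays, and the dotted line is the reference level. The lines of *hlh-1*, *act-4* and *unc-97* step up by 2 h, while those of *myo-3* and *mlc-2* are flat until 2 h.

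Markers of differentiated cell types were mostly not called. Of the body wall muscle markers, 1 of 15 rose and 0 fell, with summed signals of 2684 to 3294 at 2 h and 1218 to 5767 at 0 h, and *myo-3* and *unc-15* were at or below 69.8 on all 6 arrays. The number of rises in that list ranged from 1 to 6 over the alternatives run, and it was 3 when scaled to the hybridization controls. Of the pharynx markers, 1 of 11 rose and 2 fell, with summed signals of 1709.8 to 2559 at 2 h and 2630.1 to 3459 at 0 h. Of the neuron markers, 2 of 17 rose and 0 fell, with summed signals of 6798 to 8799 at 2 h and 8615 to 11176 at 0 h. Of the intestine markers, 1 of 14 rose and 2 fell, with summed signals of 2982 to 4324 at 2 h and 6997 to 9632 at 0 h. Of the epidermis markers, 2 of 14 rose and 2 fell, with summed signals of 17186 to 25904 at 2 h and 15189.9 to 16335 at 0 h. Germ line precursor markers had the most falls, 0 of 8 rose and 4 fell, with summed signals of 4779 to 6509 at 2 h and 16974 to 18203 at 0 h. The number of falls in that list ranged from 1 to 5 over the alternatives run. The embryos are described as collected at the first cleavages. *end-1* and *ceh-51*, zygotic genes of the later founder cells E and MS, already read at least 25499 and 15853 on the 0 h arrays, and the sources used here do not state the age of the 0 h embryos at lysis.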

How the data were processed

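Total RNA of about 80 embryos per sample was turned into cDNA, amplified by 20 cycles of PCR, labelled and hybridized to Affymetrix *C. elegans* arrays, 1 array per sample. The authors deposited MAS5 signal intensity values, scaled so that the trimmed mean of every array (2 percent left out at each end) was 500.2 to 500.3; no MAS5 version is named in the sources used here. The amplification may stretch or compress folds, which was not tested. GEO's platform annotation named the genes, with 1 gene for 20766 probe sets, several for 887 and none for 895; 20701 of the 20766 were found in a RefSeq gene table, which changed no symbol.

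The log2 of the deposited intensity was fitted with limma 3.58.1 in R 4.3.3 (lmFit, eBayes with trend and robust) over all 12 arrays, which then share 1 estimate of spread, and 2 h was compared with 0 h. The 77 control probe sets were left out. A probe set was tested if its signal passed 69.7 (each array's 40th percentile, then the median of the 12) on at least 3 of 12 arrays, which 18264 of 22548 did. A call needed an adjusted p under 0.05 (Benjamini-Hochberg over all tested probe sets) and a 1.7-fold change. Values after ± are standard errors of the log2 change. A gene was read at its brightest probe set that matches no other gene, except in the ranking of the largest changes, which used every such probe set. Where an array lay at or below 69.7, the dimmer group was raised to 69.7 and the fold given as a lower bound. Where both groups were there, no fold is given.

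Named genes were the 15 largest rises and falls with all 6 arrays above the level, the 8 largest bounds in each direction, the myogenic factors, up to 4 called members of each list in each direction and the contractile genes of the time course; some were left out of the text. *pat-10*, the later values and the second probe sets were chosen after values were seen. The members and lists were chosen with earlier results of these data known. Replicate letters did not pair the samples (correlations of same-letter deviations -0.014, -0.008 and 0.015). Samples are separate pools of embryos, nothing else about their independence is recorded, and with 3 arrays a group the number of arrays limits the precision. Alternatives were other scalings, filters, samples, variance models and thresholds, a replicate block and each array left out. No genome or sequence table was used here, so no sequences are printed.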

Additional observations from a re-analysis of the deposited data

How the results depend on the processing

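Scaling the arrays to the hybridization controls, an alternative chosen after seeing the data, gave 4264 probe sets that rose and 1009 that fell, and 3293 genes that rose and 848 that fell. Rises were then 80.9 percent of the called probe sets in place of 61.9 percent, and the median change of all tested probe sets was 0.63 in place of 0.11 on the log2 scale. Under that scaling the median of respiratory chain and ATP synthase genes turned from -0.44 to 0.09 and that of Skp1-related genes from -0.37 to 0.16. Keeping only probe sets with no suffix for possible cross-hybridization, also chosen after seeing the data, left 12370 tested, of which 1694 rose and 1057 fell. A fold of 1.7 alone, with no test, gave 5456 rises and 4553 falls of probe sets, and 4153 rises and 3583 falls of genes. The other settings stayed within 1.5 times the reported counts: other scalings, filters, samples in the fit, variance models, the adjusted p alone and another choice of probe set per gene. With 1 array left out, 2377 to 2720 probe sets rose and 1468 to 1633 fell, and 1838 to 2097 genes rose and 1214 to 1351 fell. The replicate block gave 2785 rises and 1720 falls of probe sets and 2149 rises and 1414 falls of genes. The labels do not state that the letters pair the samples. Of 685 called probe sets read in the lists, no call changed direction in any of 17 settings; counting 5 others, 214 of 690 were on the other side of the threshold in at least 1 setting. With the hybridization controls 589 of 690 kept their side. The calls lost numbered 52 with quantile normalization and 79 to 89 with 1 array left out. Signals at or below 69.7 carry no order, and 4 calls rest on such signals in all 6 arrays.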

Other observations

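The shares of tested genes called can be read by chromosome. On chromosome V 389 of 3253 genes rose and 244 fell, and on chromosome X 273 of 1933 rose and 177 fell, so that falls made up 7.50 percent on V and 9.16 percent on X. On chromosomes I to IV between 11.0 and 12.6 percent fell and between 15.98 and 18.8 percent rose. On chromosome V the shares of rises and of falls were both below those of chromosomes I to IV. These shares are given without a test, since genes of 1 chromosome include tandem families that share sequence and signal.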
